A study of Oryza sativa Japonica Group with 6 samples.

Results

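The genes described here are those of small RNA and chromatin silencing in rice, set between synergid cells and antipodal cells of the embryo sac at anthesis. They were chosen by name only: a gene was taken when its symbol or a synonym named an Argonaute (AGO, MEL1, PNH1), a Dicer-like nuclease (DCL), an RNA-dependent RNA polymerase (RDR, SHL2), a DNA methyltransferase (MET1, CMT, DRM), a Polycomb or SET domain protein (fie, EZ1, SDG), a JmjC protein (JMJ) or a histone deacetylase (HDAC). This gave 30 genes with 39 probe sets, of the 17905 genes that had a probe set of their own on the Affymetrix rice array. DDM1, WAF1, EMF2, CLF, AGO7 and CMT1 were not analysed here. Each group had 3 arrays, the synergid cells from the micropylar end of the embryo sac and the antipodal cells from its chalazal end. The plants were wild type (Oryza sativa ssp. japonica, cultivar Katy) from a greenhouse, and the cells were dissected by hand without enzymes. Within a cell type the arrays are labelled as biological replicates, with no plant or day named for any of them. A p-value here therefore measures only how these samples spread, and that spread may be partly technical. The number of cells behind an array is unclear, because the protocol for labelling is worded for egg cells and zygotes. Markers that define synergids or antipodals were not among the names looked for, so the cell labels were not set against such markers.

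In plants, Dicer-like nucleases cut double-stranded RNA into small RNAs, and RNA-dependent RNA polymerases make more of that double strand. Argonautes bind the small RNAs and use them to cut or silence matching transcripts, or to bring DNA methyltransferases to matching chromatin. Methylated cytosines, the methyl marks set by Polycomb complexes and the removal of histone acetyl groups then keep the chromatin silent. In reproductive cells these pathways are known for holding transposons in check, for imprinting in the endosperm and for the small RNAs of germ cells.

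The deposited values are linear signal intensities with the same trimmed mean, 500.1, on all arrays. Antipodal array 2 stood apart. Its median signal was 170.3, against 46.5 to 67.1 on the other 5 arrays, and its correlation with them across tested probe sets was 0.734 to 0.783, against 0.842 to 0.930 among the others. The other 5 arrays did not group strictly by cell type in these correlations. Synergid array 1 was at 0.930 with synergid array 3, 0.923 with antipodal arrays 1 and 3, and 0.889 with synergid array 2. For each silencing gene whose log2 fold change turned its sign or moved by over 1.5 times without antipodal array 2, the value without it is printed too. Actin control signal was 77.9 to 689 times higher at the 3′ end than at the 5′ end, so that probe sets far from a 3′ end may read low on every array. A signal belongs to its own probe set, and signals of different genes are not set against each other.

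None of the 30 silencing genes passed the test between synergids and antipodals. The test was limma on log2(signal + 16), with a call at a Benjamini-Hochberg adjusted p under 0.05 over 34355 tested probe sets; it called 0.32% of all probe sets (88 higher and 22 lower in synergids) and 0.396% of genes, counting 1 probe set per gene. This split depended on the setting. Quantile normalisation gave 82 higher to 6 lower and median centring 77 to 2, while it was 96 higher to 221 lower without synergid array 1 and 113 to 122 with poly-A control signal as a block. All 30 genes were bright enough to be tested. The lowest adjusted p among them was 0.441, for OsPNH1. At an unadjusted p under 0.05 there were 5 genes, OsPNH1, OsAGO4b, OsAGO14, OsAGO18 and OsMET1b, each with the higher mean in synergids. They are 16.7% of the silencing genes, beside 9.91% of all tested genes in either direction and 5.72% with the higher mean in synergids, and 4 of them are Argonautes. In 3 genes the synergid and antipodal arrays did not overlap, OsPNH1, OsAGO18 and OsMET1b, each higher in synergids. That is 3 of 30 genes, beside 7.42% of all tested genes that separate in this direction and 15.0% in either. Without antipodal array 2 there were 5 such genes higher in synergids, with OsDCL4 and JMJ705 added, and 3 lower, OsAGO1a, OsAGO17 and SHL2, beside 12.5% of all tested genes higher and 14.1% lower.

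Log2 fold changes, given throughout as the synergid mean minus the antipodal mean, ran from -0.84 for MEL1 to 1.37 for OsPNH1. They were positive for 19 of the 30 genes, or 63.3%, beside 50.4% of all tested genes. Their median was 0.33, against 0.01 over all tested genes. Median centring of the arrays moved the median of all tested probe sets up by 0.15, and then 24 of the 30, or 80.0%, were positive, beside 60.3% of all tested genes. Without antipodal array 2 the count of silencing genes was 20 and the median 0.21. The 95% interval of a fold change reached, in the median gene, 0.89 on the log2 scale to either side, a factor of 1.85. In 8 genes the whole interval lay within a 2-fold difference in either direction: OsAGO1a, OsAGO2, OsAGO4a, OsDCL4, OsRDR2, DRM3, fie and JMJ703. Changes were also added to probe sets picked at random on simulated arrays with the spread of all tested probe sets. The test found 0.4% of the 2-fold, 10% of the 4-fold and 46% of the 8-fold changes. For such probe sets, differences of the size seen here would seldom be called. Their median interval reached 1.43 to either side, wider than in the silencing genes, so the shares may be too low for these genes.

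**Figure D1:**
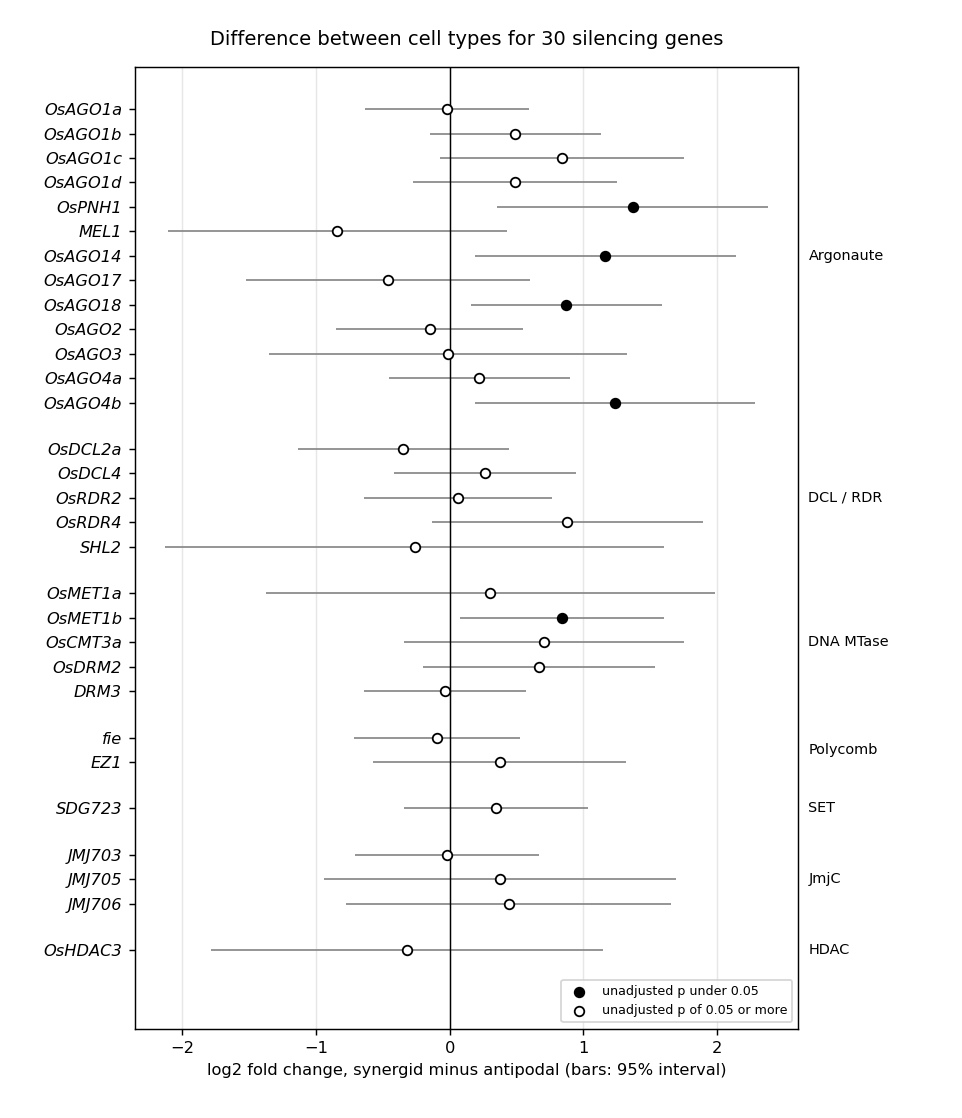
Log2 fold change of each of the 30 silencing genes (x axis, synergid minus antipodal, with the 95% interval from limma as a bar), grouped by role down the page. Filled points mark the 5 genes with an unadjusted p under 0.05, OsPNH1, OsAGO14, OsAGO18, OsAGO4b and OsMET1b, and they lie between 0.84 and 1.37.

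Of the 13 Argonautes, 8 had a positive log2 fold change (9 with quantile normalisation, 10 with median centring, 9 without antipodal array 2), with a median of 0.49. OsPNH1 (LOC9269490), the rice homologue of PINHEAD, an Argonaute known for keeping the shoot meristem and shaping leaves, had signals of 2591, 3245 and 4517 in synergids, against 558, 1531 and 2494 in antipodals. The groups did not overlap, but synergid array 1 and antipodal array 3 lay close together, and antipodal array 1 was far below the rest. The log2 fold change of OsPNH1 was 1.37 (2.58-fold, SE 0.47, 95% interval 0.36 to 2.38, unadjusted p = 0.0115, adjusted p = 0.441). Without antipodal array 2 the log2 fold change was 1.49, and without antipodal array 1 it was 0.78.

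OsAGO18 (LOC4343201) belongs to an Argonaute clade found in grasses and is known for antiviral defence, where it binds the microRNA that targets AGO1 transcripts. Its signals were 3371, 2482 and 2722 in synergids, against 1375, 1843 and 1440 in antipodals. Here the arrays of each cell type kept together, with a clear gap between the groups. The log2 fold change was 0.87 (1.83-fold, SE 0.33, interval 0.16 to 1.59, unadjusted p = 0.0199, adjusted p = 0.510), and it stayed between 0.75 and 1.00 with any 1 array left out.

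The Argonautes that load the small RNAs of heterochromatin are OsAGO4a and OsAGO4b. OsAGO4b (LOC4335025) had signals of 4386, 6682 and 8292 in synergids, against 2730, 1122 and 5967 in antipodals. Antipodal array 3 lay inside the synergid range, while antipodal arrays 1 and 2 lay below it. The log2 fold change was 1.24 (SE 0.49, interval 0.19 to 2.28, unadjusted p = 0.0235, adjusted p = 0.521), and it was 0.63 without antipodal array 2 and 1.82 without antipodal array 3. OsAGO4a (LOC4324438) had 20886, 30105 and 29871 in synergids, against 18458, 20526 and 31273 in antipodals, with overlapping groups and a log2 fold change of 0.22 (interval -0.46 to 0.90; 0.15 without antipodal array 2).

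MEL1 (LOC4334449) is the Argonaute of rice germ cells, needed for meiosis and known to bind phased small RNAs. It had signals of 287, 99.9 and 369 in synergids, against 268, 462 and 555 in antipodals. The groups overlapped, with synergid array 2 alone far below the rest. The log2 fold change of -0.84 (SE 0.59, interval -2.11 to 0.43, adjusted p = 0.749) was the lowest among the Argonautes, and it was -0.32 without synergid array 2. OsAGO14 (LOC4342603), placed near MEL1 in the Argonaute tree, pointed the other way, with 3219, 6773 and 6264 in synergids, against 1505, 1583 and 5017 in antipodals. As for OsAGO4b, antipodal array 3 lay inside the synergid range. Its log2 fold change was 1.16 (SE 0.46, interval 0.19 to 2.14, unadjusted p = 0.0229, adjusted p = 0.521), and without antipodal array 2 it was 0.90. OsAGO17 (LOC4328436) had 485, 337 and 287 in synergids, against 618, 314 and 651 in antipodals, with a log2 fold change of -0.46 (interval -1.52 to 0.60; -0.79 without antipodal array 2).

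The AGO1 type Argonautes carry most microRNAs and cut their targets. OsAGO1a (LOC4330281) varied little over the 6 arrays, with 9349, 10632 and 10738 in synergids, against 11024, 9110 and 11133 in antipodals (log2 fold change -0.02, interval -0.64 to 0.59; -0.12 without antipodal array 2). OsAGO1b (LOC9270411) had 35019, 41601 and 37289 in synergids, against 22709, 24544 and 35135 in antipodals, and only antipodal array 3 reached the synergid range (0.49, interval -0.15 to 1.13). OsAGO1c (LOC4331253) had 1203, 1296 and 2179 in synergids, against 561, 766 and 1340 in antipodals (0.84, interval -0.07 to 1.75). OsAGO1d (LOC4342138) had 4303, 2638 and 3941 in synergids, against 2307, 1919 and 3634 in antipodals (0.49, interval -0.27 to 1.25; 0.29 without antipodal array 2). In all of OsAGO1b, OsAGO1c and OsAGO1d, antipodal array 3 overlapped the synergids, and antipodal arrays 1 and 2 did not. OsAGO2 (LOC4336991) and OsAGO3 (LOC4336992), neighbours in the RefSeq annotation, had log2 fold changes of -0.15 and -0.01 and overlapping groups, and OsAGO3 was at 0.33 without antipodal array 2. OsAGO2, known in antiviral defence, ranged over 4838 to 10015 in synergids and 7323 to 8250 in antipodals, and OsAGO3 over 134 to 195 in synergids and 113 to 281 in antipodals.

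**Figure D2:**
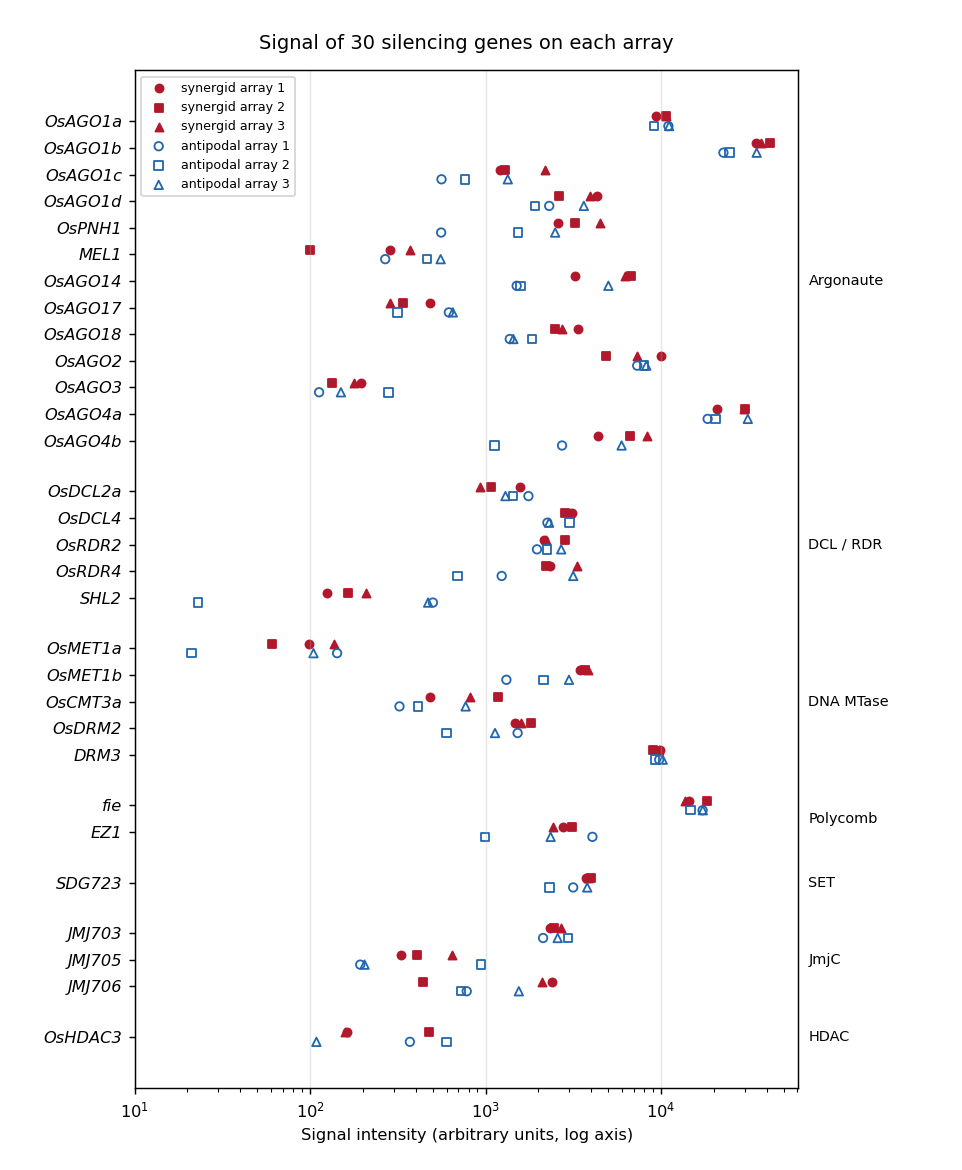
Signal intensity of each silencing gene on each array (x axis, log scale), with synergid arrays as filled red and antipodal arrays as open blue symbols and the array number shown by shape. Synergid signals lie right of antipodal ones without overlap in OsPNH1, OsAGO18 and OsMET1b; OsAGO1a, DRM3 and fie hold their 6 arrays close together. Positions compare arrays within a gene, not genes with each other.

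Most Argonautes, and most of the other silencing genes, lay below their own mean on antipodal arrays 1 and 2. The number of the 13 that lay below their own mean over the 6 arrays was 4, 5 and 2 on synergid arrays 1, 2 and 3, against 11, 10 and 2 on antipodal arrays 1, 2 and 3. For the other 17 silencing genes the counts were 7, 6 and 4 in synergids, against 9, 12 and 6 in antipodals. The same count was not made over all tested genes, so these counts do not set the silencing genes apart from other genes. Taking each gene's log2(signal + 16) minus that mean, the median Argonaute stood at 0.13, 0.21 and 0.28 on synergid arrays 1, 2 and 3, against -0.49, -0.38 and 0.26 on antipodal arrays 1, 2 and 3. By these medians antipodal array 3 lay with the synergids. It was also the array with the highest ratio of the actin controls, 689, against 77.9 to 238 on the other 5, and the part of this in the values was not tested. Single Argonautes went otherwise: MEL1 and OsAGO2 were lowest on synergid array 2, OsAGO17 was lowest on synergid array 3, and OsAGO3 was highest on antipodal array 2. The other 17 silencing genes had medians of 0.13, 0.20 and 0.17 in synergids, against -0.11, -0.35 and 0.13 in antipodals. Over all tested probe sets the medians were -0.08, 0.05 and 0.07 in synergids, against 0.003, 0.24 and -0.02 in antipodals. The lowest of the 6 signals lay on antipodal array 1 for 13 and on antipodal array 2 for 9 of the 30 genes, and on antipodal array 3 for 1. Among all tested probe sets those shares were 17.4%, 21.8% and 15.6%. These medians and shares are over probe sets of any brightness and were not matched to the silencing genes. Antipodal array 2 had the highest median signal at the same trimmed mean, and the part of brightness in these contrasts was not tested.

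**Figure D3:**
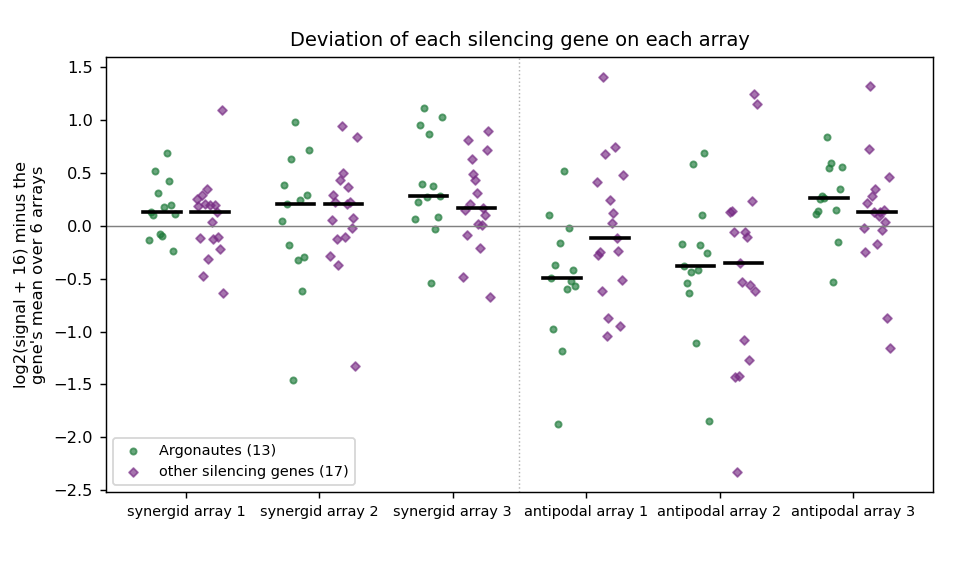
Deviation of each silencing gene on each array (y axis, log2(signal + 16) minus the gene's mean over 6 arrays), with Argonautes as circles, the other silencing genes as diamonds and medians as bars. Argonaute medians are 0.13 to 0.28 on the synergid arrays and -0.49, -0.38 and 0.26 on antipodal arrays 1, 2 and 3.

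Among the enzymes that make small RNAs, 5 were measured and none had an unadjusted p under 0.05. OsDCL4 (LOC4336362), also named SHO1, makes trans-acting small RNAs needed for shoot formation. It had 3123, 2849 and 3048 in synergids, against 2253, 3009 and 2304 in antipodals, with 1 antipodal array inside the synergid range (log2 fold change 0.26, SE 0.32, interval -0.42 to 0.94, adjusted p = 0.863; 0.40 without antipodal array 2). OsDCL2a (LOC4333337), a Dicer known for small RNAs from viruses and inverted repeats, had 1566, 1080 and 935 in synergids, against 1756, 1436 and 1299 in antipodals (-0.35, SE 0.37, interval -1.14 to 0.44, adjusted p = 0.843). Its probe sets carry a suffix for probes shared between transcripts, so a near-identical copy may contribute.

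The RNA-dependent RNA polymerase OsRDR2 (LOC4336092) feeds the pathway of DNA methylation. It had 2153, 2856 and 2198 in synergids, against 1965, 2236 and 2700 in antipodals, a log2 fold change of 0.06 (interval -0.64 to 0.77). SHL2 (LOC4323938), the rice counterpart of Arabidopsis RDR6, acts with OsDCL4 in shoot formation. It had 124, 163 and 210 in synergids, against 501, 22.9 and 471 in antipodals. Antipodal arrays 1 and 3 lay above every synergid array and antipodal array 2 below, a spread of 21.9-fold over the 6 arrays. The log2 fold change was -0.26 (SE 0.87, interval -2.13 to 1.61, adjusted p = 0.955); without antipodal array 2 it was -1.49, with an unadjusted p of 0.0117 and an adjusted p of 0.460, and it turned to 0.37 without antipodal array 1 and 0.33 without antipodal array 3. OsRDR4 (LOC4327336) had the highest value of this group, 0.88 (SE 0.47, interval -0.13 to 1.89, adjusted p = 0.657), with 2338, 2222 and 3339 in synergids, against 1236, 694 and 3161 in antipodals; it was 0.39 without antipodal array 2.

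All but 1 of the 5 DNA methyltransferases had a positive log2 fold change (all 5 with median centring, 3 without antipodal array 2), and 1 had an unadjusted p under 0.05. OsMET1b (LOC4342575), which maintains methylation at CG sites, had 3472, 3678 and 3823 in synergids, against 1315, 2136 and 2991 in antipodals. The synergid arrays lay within a narrow band, the antipodal arrays were spread out below it, and the groups did not overlap. The log2 fold change was 0.84 (1.79-fold, SE 0.36, interval 0.08 to 1.61, unadjusted p = 0.0334, adjusted p = 0.561); it was 0.88 without antipodal array 2 and 0.53 without antipodal array 1. Its paralogue OsMET1a (LOC4334435) was dim, with 98.2, 60.3 and 137 in synergids, against 143, 21.0 and 105 in antipodals (0.30, interval -1.38 to 1.98), and its log2 fold change turned to -0.33 without antipodal array 2.

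OsCMT3a (LOC4347954), a chromomethylase for CHG sites, had 483, 1174 and 820 in synergids, against 323, 412 and 770 in antipodals, and the groups overlapped (log2 fold change 0.71, interval -0.34 to 1.75). OsDRM2 (LOC4331357), the methyltransferase that small RNAs direct to new sites, had 1474, 1818 and 1586 in synergids, against 1524, 599 and 1132 in antipodals (0.67, interval -0.20 to 1.54; 0.30 without antipodal array 2). DRM3 (LOC4337721), whose Arabidopsis counterpart lacks the catalytic residues, was among the steadiest of the 30, with 9829, 8959 and 9732 in synergids, against 9770, 9254 and 10232 in antipodals. Its highest array was 1.14-fold the lowest, and its log2 fold change was -0.04 (SE 0.28, interval -0.64 to 0.57, adjusted p = 0.983; -0.07 without antipodal array 2).

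The Polycomb genes taken by name were fie and EZ1. The gene named fie (LOC4344620) encodes the WD40 subunit of the complex, and the tables do not say which of the rice FIE copies it is. It had 14491, 18217 and 13668 in synergids, against 17272, 14709 and 17320 in antipodals, with overlapping groups and a log2 fold change of -0.10 (SE 0.29, interval -0.71 to 0.52, adjusted p = 0.950; -0.17 without antipodal array 2). EZ1 (LOC4332612), also named SDG718, is the methyltransferase subunit. It had 2773, 3109 and 2419 in synergids, against 4068, 993 and 2350 in antipodals. The highest and the lowest array were both antipodal, and the log2 fold change of 0.37 (SE 0.44, interval -0.57 to 1.32, adjusted p = 0.860) was -0.17 without antipodal array 2.

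Among the other histone enzymes no gene had an unadjusted p under 0.05. SDG723 (LOC4346464), a Trithorax type methyltransferase also named OsTrx1, sets an active mark and is known in flowering time. It had 3738, 3997 and 3845 in synergids, against 3160, 2318 and 3800 in antipodals (log2 fold change 0.35, SE 0.32, interval -0.34 to 1.03, adjusted p = 0.815; 0.15 without antipodal array 2). JMJ703 (LOC4338043), a demethylase of an active mark known for silencing transposons in rice, had 2337, 2472 and 2709 in synergids, against 2129, 2961 and 2577 in antipodals (-0.02, SE 0.32, interval -0.71 to 0.67, adjusted p = 0.993; 0.09 without antipodal array 2). JMJ705 (LOC4324980), which removes the Polycomb mark, had 330, 407 and 643 in synergids, against 193, 940 and 204 in antipodals. Antipodal array 2 alone was above the synergids, and the log2 fold change of 0.38 (interval -0.94 to 1.69) was 1.09 without it. JMJ706 (LOC4349499), a demethylase of a heterochromatic mark known in floral organs, had 2399, 437 and 2099 in synergids, against 781, 723 and 1549 in antipodals. Synergid array 2 was the lowest of all 6; the log2 fold change was 0.44 (SE 0.57, interval -0.77 to 1.66, adjusted p = 0.874), and it was 1.22 without that array and 0.24 without antipodal array 2. OsHDAC3 (LOC4328717), a histone deacetylase, had 162, 478 and 157 in synergids, against 371, 598 and 109 in antipodals (-0.32, SE 0.68, interval -1.78 to 1.14, adjusted p = 0.929), and its log2 fold change turned to 0.17 without antipodal array 2.

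More than 1 probe set was present for 7 of the 30 genes, and those of a gene did not always point the same way. For OsAGO1b the dimmer probe set had 1822, 1697 and 3134 in synergids, against 1280, 223 and 1818 in antipodals, a log2 fold change of 1.37 (unadjusted p = 0.0387, adjusted p = 0.577) that was 0.48 without antipodal array 2. The dimmer OsDCL2a probe set had no overlap between the groups, and pointed the same way as the brighter one, with 91.4, 43.8 and 52.3 in synergids, against 141, 143 and 101 in antipodals (-0.91, interval -2.41 to 0.59). Both JMJ706 probe sets were positive, at 0.44 and 0.66 (0.24 and 0.21 without antipodal array 2), and both had their lowest synergid signal on array 2. The JMJ706 probe set at 0.44, which stands for the gene, carries a suffix for possible cross-hybridisation, and the one at 0.66 does not. The OsRDR4 probe sets disagreed, at 0.88 for the brighter and -0.66 for the dimmer (0.39 and -0.40 without antipodal array 2). Both carry a suffix for possible cross-hybridisation. The other DRM3 probe sets had -0.16 and -1.13 (-0.68 and -0.43 without antipodal array 2). Those of SDG723 had 0.04 and -0.16, with the signs turned to -0.11 and 0.51 without that array. The further OsAGO18 probe set was too dim to test.

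**Figure D4:**
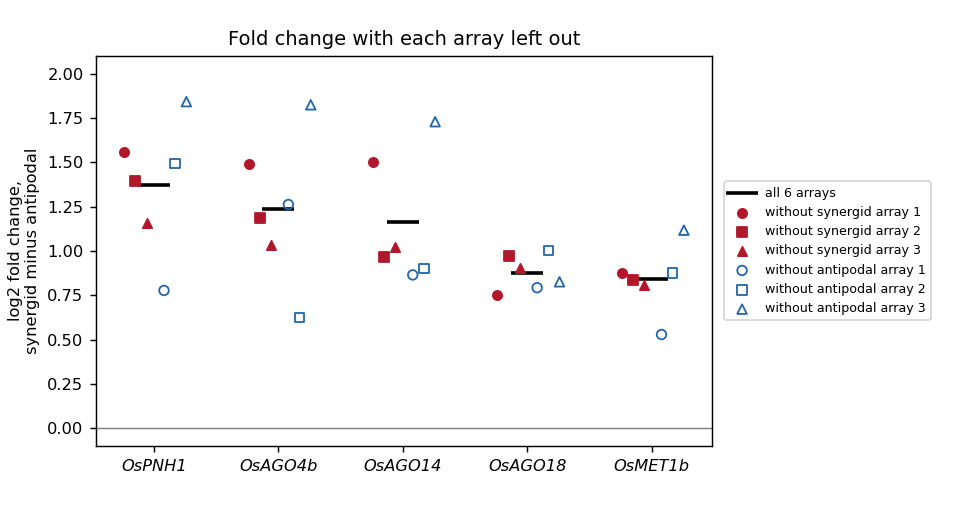
Log2 fold change (y axis, synergid minus antipodal) of the 5 genes with an unadjusted p under 0.05, with all 6 arrays (black bars) and with each array left out in turn. The 5 genes were picked on these same arrays. All values stay above 0, which was fixed in advance for OsPNH1, OsAGO18 and OsMET1b, whose groups do not overlap. Leaving out antipodal array 3 gives 1.84 for OsPNH1, 1.82 for OsAGO4b and 1.73 for OsAGO14. Leaving out antipodal array 2 gives 0.63 for OsAGO4b.

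Single arrays moved the size of these differences, least for OsAGO18. With 1 array left out, the log2 fold change ranged over 0.78 to 1.84 for OsPNH1, 0.63 to 1.82 for OsAGO4b, 0.87 to 1.73 for OsAGO14, 0.75 to 1.00 for OsAGO18 and 0.53 to 1.12 for OsMET1b. The number of silencing genes with an unadjusted p under 0.05 was 3 with synergid array 1 left out, 3 with synergid array 2 and 2 with synergid array 3. With an antipodal array left out it was 3 for array 1, 5 for array 2 and 7 for array 3. The 5 genes without antipodal array 2 were OsPNH1, OsAGO18 and OsMET1b again, with JMJ705 and SHL2 in place of OsAGO4b and OsAGO14. None was called in any of these 6 fits.

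Of 16 other genes of the same pathways, limma called 0, beside 0.396% of all tested genes. An unadjusted p under 0.05 was reached by 1 of the 16, beside 9.91% of all tested genes. MSI1 (LOC4333540), the histone-binding WD40 protein of the Polycomb and chromatin assembly complexes, had 13227, 12497 and 10019 in synergids, against 14956, 27874 and 19622 in antipodals. All antipodal arrays lay above all synergid arrays, and the mean was lower in synergids (log2 fold change -0.77, SE 0.32, interval -1.44 to -0.09, unadjusted p = 0.0290, adjusted p = 0.548; -0.53 without antipodal array 2). In 6 of the 16 the groups did not overlap, beside 15.0% of all tested genes. Those lower in synergids were MSI1 and a pair of genes named DRB1, a double-stranded RNA-binding partner of Dicers. The first of these, LOC4324620, had 6733, 5425 and 4617 in synergids, against 10983, 8078 and 7486 in antipodals, and the other, LOC4351288, had 1781, 2857 and 2591 in synergids, against 2976, 4607 and 3659 in antipodals. Their log2 fold changes were -0.66 and -0.64. The probe set of LOC4351288 carries a suffix for possible cross-hybridisation, so a related gene may contribute to its values. Those higher in synergids were LHP1, a reader of the Polycomb mark (0.51), the Dicer partner DRB4 (0.48) and the histone acetyltransferase GCN5 (0.31). OsSGS3, which works with SHL2, had the highest value of the 16, 0.54, with overlapping groups; without antipodal array 2 it was 0.58, and DRB5, at 0.92, was higher. DRB3 had the lowest, -1.43 (interval -2.99 to 0.12), which was -0.54 without synergid array 3 and -0.87 without antipodal array 1. Median log2 fold change over the 16 was 0.16.

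Markers of the ovule tissue around the embryo sac were also higher in synergids in part, although none was called. Of 6 such genes, MADS13, MADS21, MADS29 and MADS3 had higher signals in synergids without overlap, beside 7.42% of all tested genes that separate in this direction. Their log2 fold changes were 1.72, 1.82, 1.25 and 1.18, with adjusted p values of 0.196 to 0.465. MADS58 and DL did not separate (-0.03 and -0.75, and 0.39 for MADS58 without antipodal array 2). The summed signal of the 6 was 11058 to 15636 in synergids and 5099 to 12428 in antipodals, lowest on antipodal array 1. Such sums follow the brightest genes: MADS58 alone gave 8879 of the 12428 on antipodal array 2. The 5 epidermal Roc genes summed to 21127 to 27195 in synergids, against 13515, 16334 and 23315 on antipodal arrays 1, 2 and 3. Roc2 was higher (1.19) and Roc3 lower (-1.92) at an unadjusted p under 0.05. The part of such tissue in the Argonaute values was not tested. In such bulk samples, fewer cells of a type and less RNA per cell cannot be told apart.

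**Figure D5:**
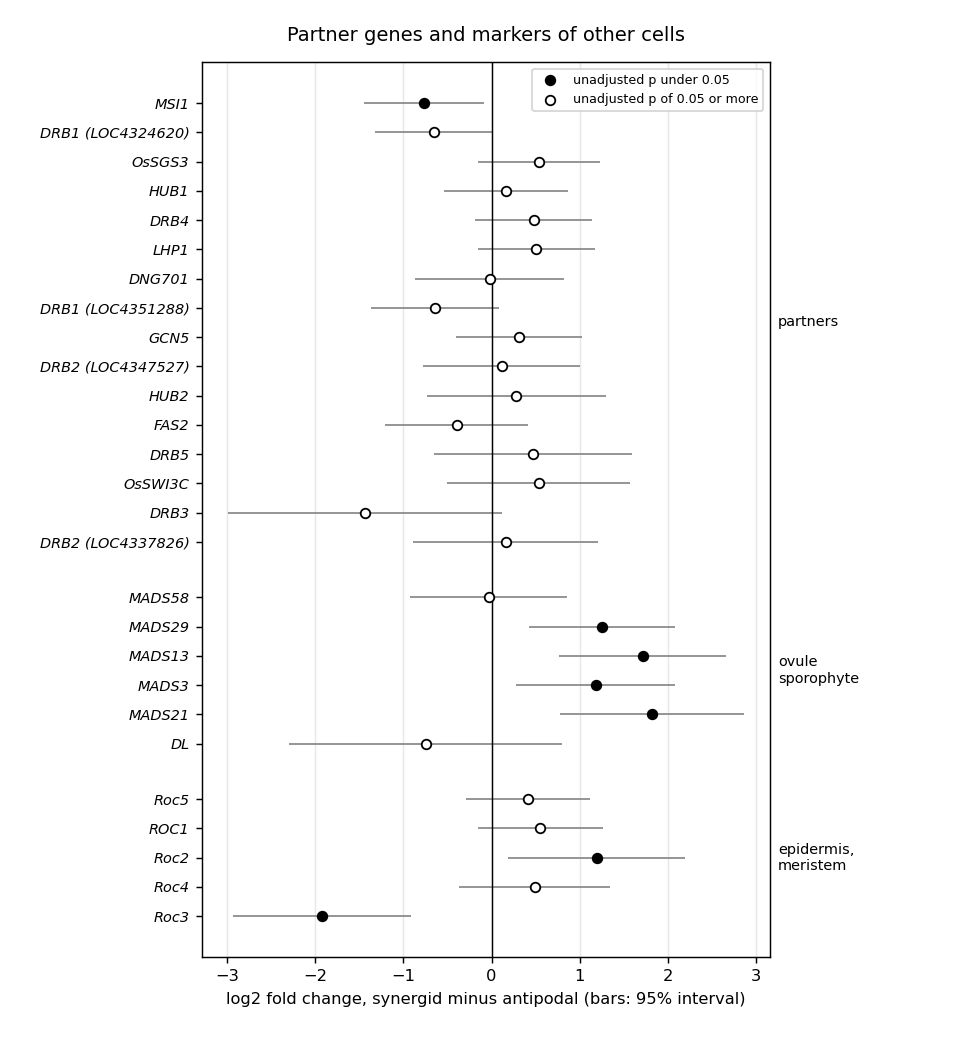
Log2 fold change (x axis, synergid minus antipodal, with the 95% interval from limma as a bar) of 16 partner genes, 6 markers of the ovule sporophyte and 5 of epidermis and meristem. MADS13, MADS21, MADS29 and MADS3 lie between 1.18 and 1.82, and MSI1 at -0.77 is the only partner gene with an unadjusted p under 0.05.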

How the data were processed

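The authors deposited 1 table of linear signal intensity for 57381 probe sets on 6 arrays, made with GCOS 2.0 and MAS5, per the submitters' processing notes; 123 control probe sets were left out. Signals were transformed to log2(signal + 16), the dimmest 40% by mean were removed (below a signal of 36.7), and limma 3.58.1 (R 4.3.3) gave the comparison of synergids with antipodals (intensity trend, 4 residual and 10.6 prior degrees of freedom), with Benjamini-Hochberg adjustment over 34355 probe sets. Intervals are at 95% and cover the spread between arrays; 3 arrays a group limit the precision.

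Genes were named from the platform annotation, with synonyms from a RefSeq table (assembly ASM3414082v1), and all 30 matched it. Where a gene had several probe sets, the brightest over the 6 arrays stood for it. The members, the partner list, the markers and the tests were chosen with earlier results of these data known. Of 26 genes that matched the partner names, 10 were left out because the name belongs to another gene, among them KAO, Hd1 and PRR37; 0 of those 10 was called. Every member is described; SE and adjusted p are given for genes with an unadjusted p under 0.05, groups that do not overlap, or the highest or lowest log2 fold change of a role, and for those named MEL1, SHL2, SHO1, PNH1 or fie. Of the photosynthetic markers, CAB2R had a log2 fold change of -0.65 and OsrbcS 0.02, and RBCS1 was too dim to test; no gene matched the egg cell and zygote names. The fit was tested on simulated data (5 draws; 23 of 317 calls were false). Alternatives were the pseudocount, the filter, normalisation, trend, array weights, blocks and left-out arrays. Figures were drawn with matplotlib 3.10.9.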

Additional observations from a re-analysis of the deposited data

How the results depend on the processing

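No silencing gene and no partner gene was called under any of the 18 alternatives, and no silencing gene with every probe set of a gene counted on its own. Of 306 values (17 silencing genes under 18 alternatives), 290 kept their sign, and 10 of the 17 genes kept it throughout, among them OsPNH1, OsAGO4b, OsAGO14, OsAGO18, OsMET1b and MEL1. The 16 that turned, none of them called, were in 7 genes. OsPNH1, OsAGO4b, OsAGO14, OsAGO18 and OsMET1b were picked for their difference on these same arrays, so their kept signs add no separate support. For OsPNH1, OsAGO18 and OsMET1b, whose groups do not overlap, leaving out 1 array could not turn the sign. With 1 array left out, SHL2 ranged over -1.49 to 0.37 (positive without antipodal array 1 or 3), DRM3 over -0.074 to 0.0054 (positive without synergid array 2) and EZ1 over -0.17 to 0.84 (negative without antipodal array 2). JMJ703 ranged over -0.14 to 0.094 (positive without synergid array 1 or antipodal array 2), and OsHDAC3 over -0.98 to 0.17 (positive without antipodal array 2). With median centring DRM3 was 0.11, fie 0.052 and JMJ703 0.13. With array weights EZ1 was -0.032 and JMJ703 0.074, and with poly-A control signal as a block JMJ703 was 0.040. On the 4 arrays written with more digits in the table SHL2 was 0.55, JMJ706 -0.13 and OsHDAC3 0.081. The number of silencing genes at an unadjusted p under 0.05 was 5, but 0 with no intensity trend, 3 on the 4 arrays of the longer format, and 2 to 7 with 1 array left out; its alternatives, and those 4 arrays for any result, were chosen after seeing the data. Calls over all probe sets numbered 110, but 31 with no intensity trend, 193 with array weights, 284 with the number format as a block, 235 with poly-A control signal as a block, 458 on the 4 arrays of the longer format, and 42 to 317 with 1 array left out. The split was 88 higher to 22 lower, but 137 to 147 with the number format as a block and 239 to 219 on the 4 arrays. With the replicate number as a block there were 293, 149 higher and 144 lower, and 7 silencing genes at an unadjusted p under 0.05. Same-numbered arrays deviated together with correlations of 0.22, 0.12 and 0.02, against -0.15 to 0.02 for arrays of different number. Only synergid array 3 correlated better with another number, at 0.022 with antipodal array 2 against 0.020 with its own. Both arrays numbered 1 were those of the shorter number format. The labels name no pairs, so the main fit did not pair the arrays, and whether the numbers mark pairs was not tested. Within the number formats, OsPNH1 differed by 0.96 on the 4 arrays of the longer and 2.18 on the pair of the shorter, OsAGO18 by 0.67 and 1.28, OsAGO14 by 1.20 and 1.09, OsAGO4b by 1.52 and 0.68, and OsMET1b by 0.57 and 1.39. The causes of these shifts were not tested. The table carries no detection call, so signals near the filter, as for OsMET1a and for SHL2 on antipodal array 2, have no stated background.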
